A study of Mus musculus with 2 samples.

Results

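Endothelial cells line the blood vessels of the thymus, and 10 genes that mark them are described here in the newborn mouse thymus: Pecam1, Cdh5, Kdr, Flt1, Egfl7, Cldn5, Eng, Ramp2, Esam and Plvap. They were chosen by name as a fixed set of endothelial identity genes, and all 10 were found by gene ID among the 43346 mouse genes of the deposited tables. RNA came from whole thymus of postnatal day 0 pups of strain B6NCrl, pup 6 for replicate 1 and pup 7 for replicate 2, with no genetic change or treatment in the labels. The labels call the assay single cell RNA-seq, but each of the 2 libraries was made from 13 pg of tissue RNA, stated as 1 cell-equivalent, and not from a sorted cell. The mirVana kit was used, RNA above 200 nt was kept, spike-ins were added, a Smart-seq protocol document is linked, and sex was not collected. The labels list 1 donor for both pups, so the spread between replicates may hold pup, RNA handling and library together. With 1 group of 2 libraries, the data give levels and their spread over pups, and no test between conditions.

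Vascular endothelium is held together by adherens and tight junctions and reads its surroundings through receptors for vascular endothelial growth factor (VEGF), for ligands of the TGF-beta and BMP families and for the peptide adrenomedullin. In the thymus, vessels are the route by which progenitors enter and mature T cells leave. Several of the genes have a second known source: Pecam1 and Esam are also made by platelets and blood progenitors, Pecam1 and Eng by myeloid cells, and Cdh5 and most of the others also by the endocardium of the heart.

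The sequences below are reference sequences on GRCm38 for parts of 3 genes whose transcript shares are described further on. Sequence was not compared between the pups. The Pecam1 stretch (chr11:106671742-106671798, minus strand, GENCODE M21) shows in capitals a 57-base exon of the cytoplasmic tail, with 20 bases of the neighbouring exons on each side. This exon encodes a tyrosine-based inhibitory motif of the receptor.
Pecam1 tail exon: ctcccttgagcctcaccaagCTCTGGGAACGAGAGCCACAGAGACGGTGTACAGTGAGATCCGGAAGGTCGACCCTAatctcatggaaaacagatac
Egfl7 has several start sites, and windows around the 2 of its 3 RefSeq starts at which the most counts began are shown (RefSeq, GRCm38.p6, plus strand, 250 bases before to 50 after the start). They lie at chr2:26583615-26583914 for start 2 and chr2:26586386-26586685 for start 3. Capitals mark GGAA on either strand, the core letters bound by ETS factors.
Egfl7 start 2: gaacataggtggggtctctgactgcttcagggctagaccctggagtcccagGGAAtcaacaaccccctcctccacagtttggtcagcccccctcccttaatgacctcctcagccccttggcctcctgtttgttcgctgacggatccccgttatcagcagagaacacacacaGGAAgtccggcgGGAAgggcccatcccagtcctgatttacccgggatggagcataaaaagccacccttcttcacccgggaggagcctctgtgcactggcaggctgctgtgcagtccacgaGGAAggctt
Egfl7 start 3: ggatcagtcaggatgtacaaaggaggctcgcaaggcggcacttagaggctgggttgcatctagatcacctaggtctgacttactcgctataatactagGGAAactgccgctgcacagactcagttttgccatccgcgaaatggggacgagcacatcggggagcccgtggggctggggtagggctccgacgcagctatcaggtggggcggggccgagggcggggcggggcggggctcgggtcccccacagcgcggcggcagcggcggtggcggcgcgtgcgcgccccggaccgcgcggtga
An intron of Egfl7 also holds the microRNA miR-126. Its hairpin (RefSeq, chr2:26591357-26591429, plus strand) is shown with the mature 3p strand in capitals, and the mature strand (chr2:26591402-26591423) with its seed, bases 2 to 8, in capitals.
Mir126a hairpin: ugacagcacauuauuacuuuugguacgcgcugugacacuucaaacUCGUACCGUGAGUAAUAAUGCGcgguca
mmu-miR-126a-3p: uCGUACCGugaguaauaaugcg
The short transcript Eng-203 (GENCODE M21, chr2:32646993-32650367, plus strand, an intron lying between its 2 exons) is shown with capitals for the 32 bases it shares with the first exon of the full-length Eng-201.
Eng-203: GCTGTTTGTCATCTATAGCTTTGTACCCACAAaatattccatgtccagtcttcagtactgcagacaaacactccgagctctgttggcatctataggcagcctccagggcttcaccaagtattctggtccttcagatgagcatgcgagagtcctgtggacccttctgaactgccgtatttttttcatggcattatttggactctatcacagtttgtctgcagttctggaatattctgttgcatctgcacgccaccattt

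Mouse genes took 25999043 expected counts in replicate 1 and 31902773 in replicate 2, beside ERCC spike-ins at 3.72% and 3.27% of all counts. An expected count is a number of reads as the authors' program estimated it. A gene at 0 can hide up to 3 counts at 95%, which is 0.115 counts in each 1000000 mouse counts of replicate 1 and 0.0940 in replicate 2. Levels are given in TPM, a measure per transcript length that here sums to 1000000 over mouse genes in each library. As a check of the tissue label, 11 of 12 T-lineage genes were read (1 or more counts) in both libraries. They summed to 14765 TPM in replicate 1 and 14741 TPM in replicate 2. Of 11 thymic epithelial genes, 10 were read in both, against 19.0% of all mouse genes. Those not read in both were Cd5, at 0 and 4071 counts, and Foxn1, at 0 and 1129. Krt14 (2 and 1476 counts) and Aire (28 and 1158) were far lower in replicate 1. Psmb11 (7440 and 1562) was lower in replicate 2, and these 3 were named after their values were seen.

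The 10 endothelial genes summed to 418 TPM in replicate 1 and 256 TPM in replicate 2 (337 ± 115, SD, n = 2). In counts they held 562 and 296 counts in each 1000000 mouse counts, a scale called normalised counts below. In a whole-tissue library, fewer endothelial cells and less RNA per cell cannot be told apart. Neither can be told apart from differences in RNA handling or library preparation between the replicates. At 1 or more counts, 7 of the 10 were read in both libraries, 2 (Cldn5 and Plvap) in replicate 1 alone and 1 (Kdr) in neither. Over all mouse genes 19.0% were read in both. Among the 7357 genes with a mean between 3.62 and 104 TPM, the range spanned by the 9 endothelial genes read, 7 of those 9 were read in both, against 67.1% of all genes in the range. At 10 or more counts, 6 of the 10 were read in both.

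Between the pups, 5 of the 9 genes that averaged at least 100 counts were 4-fold or more apart, measured as log2 of replicate 2 over replicate 1 with 1 TPM added to each. Of all 9341 mouse genes with that many counts, 50.9% were as far apart, so the endothelial share was close to that of the whole table. Cldn5, Flt1 and Plvap were higher in replicate 1, the direction of 21.5% of all genes, and Ramp2 and Cdh5 were higher in replicate 2, the direction of 29.4%. The median log2 ratio was -0.89 over the 9 genes and 0.17 over all genes, and the median size of the ratio was 3.04 over the 9 genes and 2.07 over all.

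**Figure D1:**
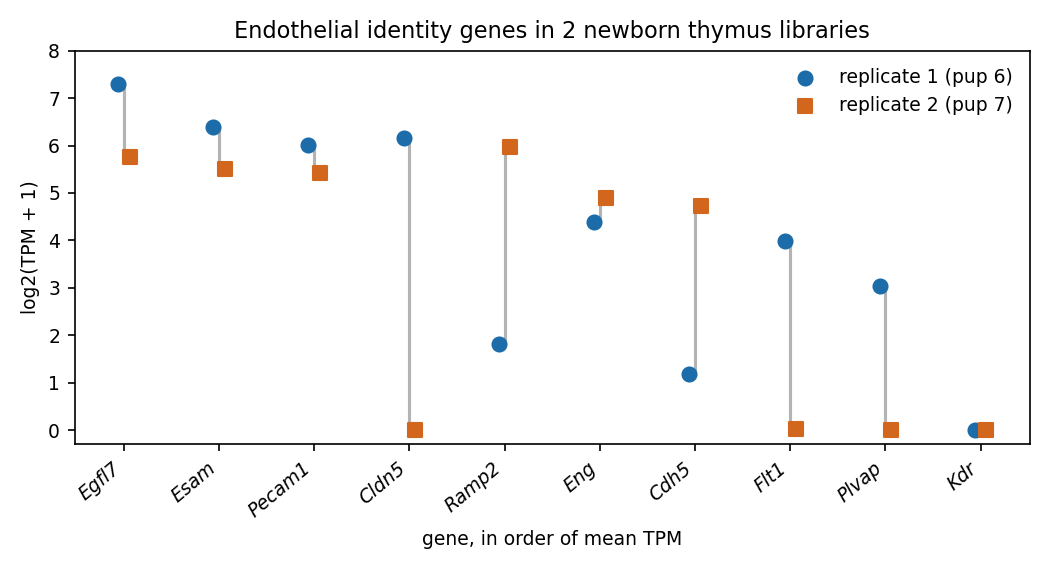
Level of each endothelial identity gene in each library, as log2(TPM + 1) on the vertical axis, with genes in order of mean TPM. Circles are replicate 1 (pup 6), squares replicate 2 (pup 7), and a grey line joins the pair. Cldn5, Flt1 and Plvap stand at or near 0 in replicate 2, Ramp2 and Cdh5 are higher there, and Kdr is at 0 in both.

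**Figure D2:**
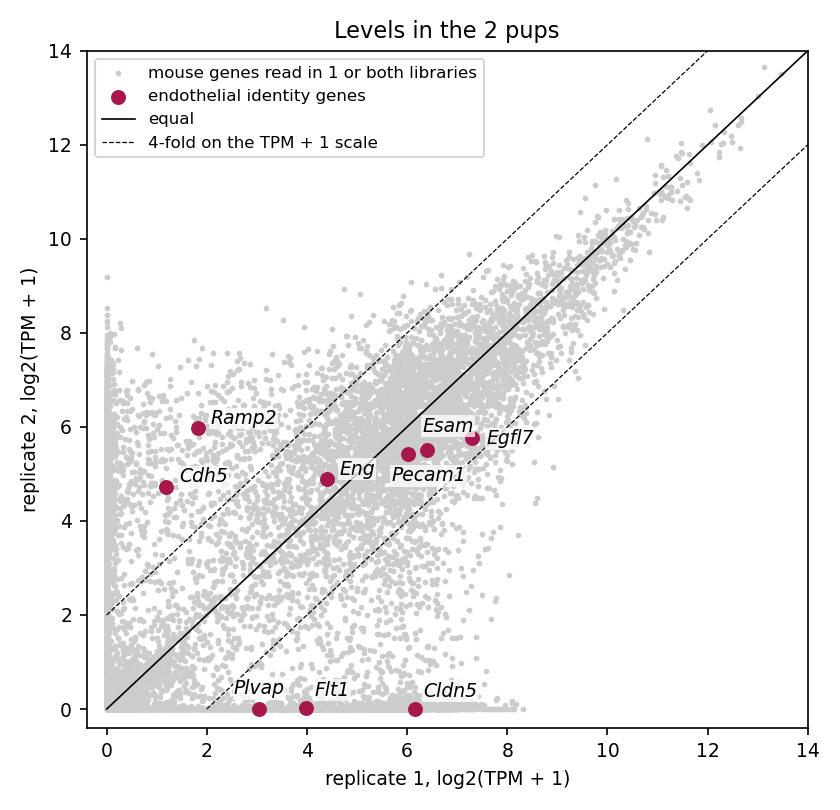
Levels in replicate 1 (horizontal) and replicate 2 (vertical), both as log2(TPM + 1), for every mouse gene read in 1 or both libraries (grey) and the 9 endothelial identity genes read (red). The solid line marks equal levels and the dashed lines a 4-fold difference. 5 of the 9 lie outside the dashed lines, as do 50.9% of all genes that averaged at least 100 counts.

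In the order of mean TPM, Egfl7 came first, followed by Esam, Pecam1, Cldn5, Ramp2, Eng, Cdh5, Flt1, Plvap and Kdr. For all 9 neighbouring pairs in that order, the ranges over the 2 libraries overlapped, so no neighbours differed beyond their spread. Of 21474 protein-coding genes, 1719 had a higher mean TPM than Egfl7, 3245 a higher one than Pecam1, 6683 a higher one than Cdh5 and 8235 a higher one than Plvap.

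Among the junction and adhesion genes, Pecam1 and Esam were read at similar depth in both libraries, whereas Cdh5 and Cldn5 were each read mainly in 1 library. Pecam1 encodes CD31, an adhesion receptor at contacts between endothelial cells (chromosome 11, 106654217 to 106750628, minus strand). It had 3688 counts in replicate 1 and 2826 in replicate 2, or 63.5 and 41.7 TPM (52.6 ± 15.4, SD, n = 2). Its normalised counts were 1.60-fold higher in replicate 1 (95% counting interval 1.52 to 1.68). Esam, an immunoglobulin-family adhesion molecule of endothelial tight junctions (chromosome 9, 37528078 to 37538319, plus strand), had 2984 and 1807 counts, or 82.8 and 44.3 TPM (63.5 ± 27.2, SD, n = 2). Replicate 1 was again the higher of the pair, 2.03-fold in normalised counts (1.91 to 2.15), and neither gene reached the 4-fold threshold.

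Cdh5 encodes VE-cadherin, the adhesive protein of endothelial adherens junctions (chromosome 8, 104101625 to 104144511, plus strand). It had 102 counts in replicate 1 and 2296 in replicate 2, or 1.28 and 25.6 TPM (13.4 ± 17.2, SD, n = 2). In normalised counts it was 18.3-fold higher in replicate 2 (15.0 to 22.6). Cldn5, the claudin of endothelial tight junctions, is a single-exon gene (chromosome 16, 18776847 to 18778262, plus strand). It had 1888 counts in replicate 1 and 0 in replicate 2, or 70.3 and 0 TPM, and normalised counts were at least 772-fold higher in replicate 1 against the floor of 3 counts per library. Cdh5 was high in the library in which Cldn5 was at 0, and low in the library in which Cldn5 was high. With 2 libraries, opposite directions in 2 genes give no pattern to compare.

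Of the other junction partners, a list of 12 genes, 6 were read in both libraries, 2 in replicate 2 alone and 4 in neither. At 10 or more counts, 4 of the 12 were read in both. Of the 6 that averaged at least 100 counts, 1 was 4-fold or more higher in replicate 1 and 2 in replicate 2, against 21.5% and 29.4% of all genes, and the list summed to 120 TPM in replicate 1 and 406 TPM in replicate 2. Ctnnb1, the beta-catenin that binds the tail of cadherins, had 4 and 9785 counts, or 0.0856 and 129 TPM. Jup, the related plakoglobin, had 79.6 and 181 TPM. Ctnna1, the alpha-catenin that links both to actin, had 20.8 and 34.9 TPM. F11r, a junctional adhesion molecule, had 12.3 and 47.9 TPM, and the tight junction gene Ocln had 0 and 673 counts. Ctnnd1, the p120 catenin that also binds cadherin tails, went the other way, with 763 and 110 counts, or 7.48 and 0.951 TPM, and was named after its values were seen. Thymic cells other than endothelium make these genes too.

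Of the 2 VEGF receptor genes, Kdr was not read and Flt1 was read almost wholly in 1 library. Kdr, which encodes VEGFR2, the main signalling receptor for VEGF-A in endothelium (chromosome 5, 75932827 to 75978458, minus strand), had 0 counts in both libraries. A count of 0 allows up to 3 counts, or 0.0252 TPM in replicate 1 and 0.0223 TPM in replicate 2 on its coding transcript Kdr-201. Of protein-coding genes, 48.6% were at 0 in both libraries. Flt1, which encodes VEGFR1, a high-affinity VEGF receptor with weak kinase activity (chromosome 5, 147561604 to 147726011, minus strand), had 2066 counts in replicate 1 and 1 in replicate 2. That was 14.9 and 0.0107 TPM, and a count ratio of 2535 with a counting interval of 455 to 100180. Every Flt1 count was placed on the full-length Flt1-202, and the shorter coding transcript Flt1-203, which makes a soluble receptor, was listed at 0 in both.

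Of 10 other genes of the VEGF pathway, 2 were read in both libraries, 3 in replicate 1 alone, 1 in replicate 2 alone and 4 in neither. At 10 or more counts, 1 of the 10 was read in both. Nrp1, a co-receptor of Kdr, had 2 counts in replicate 1 and 6128 in replicate 2, a 2497-fold count ratio (691 to 20623). Its relative Nrp2 had 250 and 0 counts, at least 102-fold higher in replicate 1. The ligand gene Vegfc had 1387 and 0 counts, at least 567-fold higher in replicate 1. Plcg1, a phospholipase that acts below Kdr and also below the T-cell receptor, had 14.9 and 139 TPM. The ligand genes Vegfb, Vegfd and Pgf and the receptor gene Flt4 were at 0 in both, and Vegfa had 0 and 1 counts, all named after their values were seen.

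**Figure D3:**
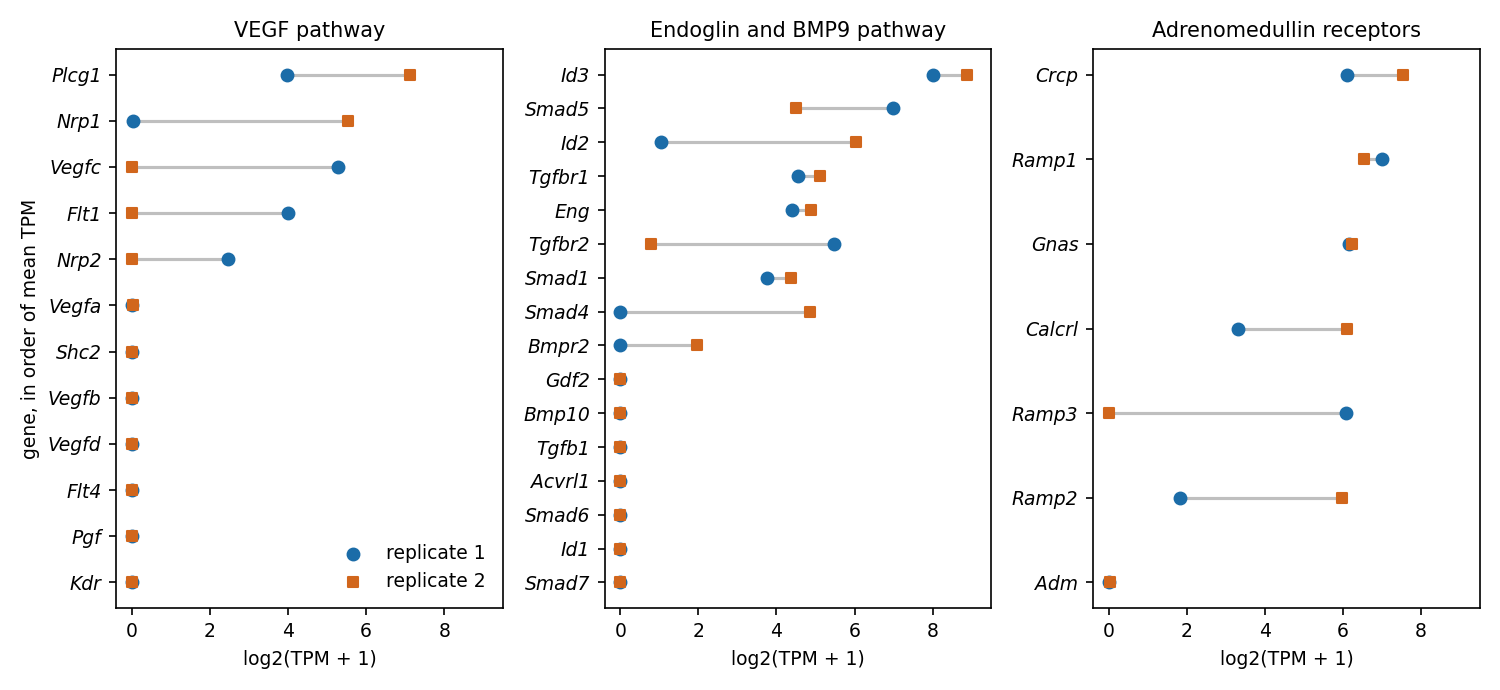
Genes of the VEGF, endoglin and adrenomedullin receptor pathways, in order of mean TPM from top to bottom within each panel, with log2(TPM + 1) on the horizontal axis. Circles are replicate 1, squares replicate 2, and a grey line joins the pair. Flt1 and Vegfc lie high in replicate 1 alone, Nrp1 high in replicate 2, and Ramp2 and Calcrl both lie higher in replicate 2.

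Egfl7 had the highest mean TPM of the 10 genes and was read in both libraries, but from different transcripts. In replicate 2 alone Ramp2 was higher, at 61.8 TPM, and Pecam1 and Esam had more counts than Egfl7 in both libraries. It encodes a secreted protein of the vessel wall (chromosome 2, 26580014 to 26593120, plus strand). It had 2205 counts in replicate 1 and 1130 in replicate 2, or 155 and 53.3 TPM (104 ± 72.1, SD, n = 2), with normalised counts 2.39-fold higher in replicate 1 (2.23 to 2.57). Of its 19 transcripts, 6 held 10% or more of the gene's TPM in either library, and none of the 6 did so in both. The same count over all genes is not given here, so whether Egfl7 is unusual in this is not known. In replicate 1 these were Egfl7-211 (40.9%), Egfl7-217 (22.0%), Egfl7-216 (21.7%) and Egfl7-209 (13.9%). In replicate 2 they were Egfl7-202 (48.6%) and Egfl7-203 (33.7%).

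The transcripts read also differed in where they start. Transcripts that begin within 60 bases of start 2 held 0% of Egfl7 TPM in replicate 1 and 57.9% in replicate 2, or 0 and 905 counts. Transcripts at start 3 held 21.7% and 8.05%, or 732 and 43.8 counts, and those at a further RefSeq start upstream (start 1) held 0% and 0.360%. The sequence around start 2 shown above has 4 GGAA matches on either strand, that around start 3 has 1, and that around start 1, which was barely read, has 5. Over 32851 promoter windows of the same 300 bases the median is 3, 96.0% hold at least 1 and 46.3% hold at least 4.

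The miR-126 hairpin printed above lies in intron 7 of Egfl7-202. Egfl7-211, the leading transcript of replicate 1, starts 5 bases beyond the end of that hairpin, and 230 bases of its 295-base first exon lie in the same intron. Transcripts that start beyond the hairpin held 62.8% of Egfl7 TPM in replicate 1 and 0% in replicate 2, or 49.1% and 0% of its counts. In replicate 2 all Egfl7 transcripts read began before the hairpin. The gene entry Mir126a itself was listed at 0 in both libraries. It is 73 bases long, RNA above 200 nt was sequenced, and the effective length in the tables is the length less 99 bases, so these libraries do not measure the microRNA. Egfl7 shares 64 bases with Agpat2 on the other strand, which had 1593 and 0 counts. Of the Egfl7 transcripts, only Egfl7-204, listed at 0 counts in both libraries, reaches those bases. The strand setting of the counting is not given in the sources used here.

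**Figure D4:**
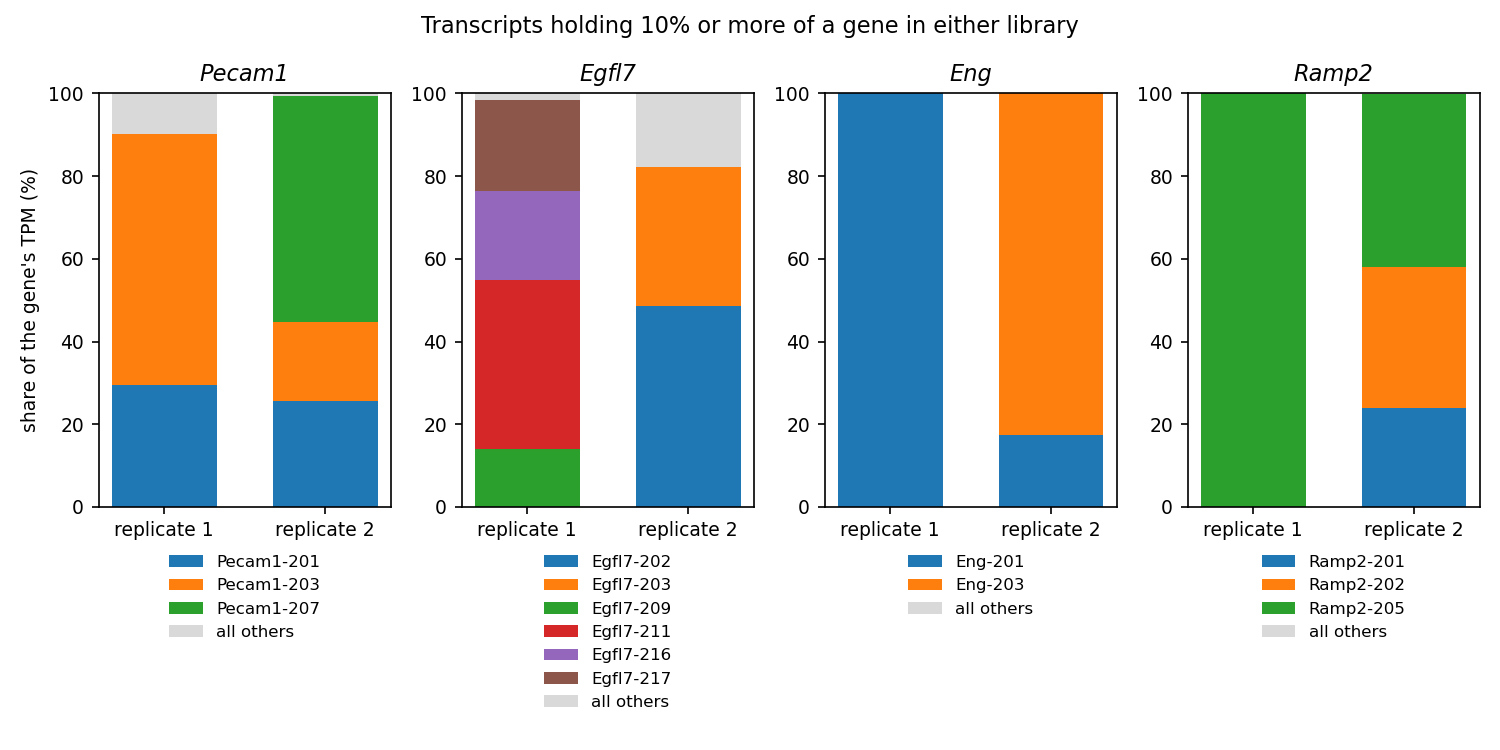
Share of each gene's TPM (vertical axis, percent) held by its transcripts in replicate 1 (left bar) and replicate 2 (right bar) for Pecam1, Egfl7, Eng and Ramp2. Colours are the transcripts at 10% or more in either library and grey is all others together. Pecam1 shares 2 of its 3 coloured transcripts between the bars, and Egfl7 shares none of its 6.

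Pecam1 also differed in which exons were read. Pecam1-203 held 60.6% of its TPM in replicate 1 and 19.0% in replicate 2, Pecam1-201 held 29.6% and 25.7%, and Pecam1-207 held 0% and 54.6%. The 57-base tail exon printed above is present in Pecam1-201 and Pecam1-207 and absent from Pecam1-203. Over all 8 Pecam1 transcripts, the 4 with it held 29.6% of TPM in replicate 1 and 80.5% in replicate 2. A whole coding exon of 303 bases nearer the gene's start (chromosome 11, 106697052 to 106697354) is in Pecam1-201 and Pecam1-203 and absent from Pecam1-207. Over all 8, the 5 transcripts with that exon held 100% in replicate 1 and 44.9% in replicate 2. These shares are the authors' estimates from reads, 1 library for each pup.

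Eng, the co-receptor endoglin that binds BMP9 on endothelium (chromosome 2, 32646595 to 32682669, plus strand), changed direction with the scale. It had 20.03 TPM in replicate 1 and 28.7 TPM in replicate 2 (24.4 ± 6.15, SD, n = 2), yet 1360 and 473 counts, which is 3.53-fold higher in replicate 1 in normalised counts (3.18 to 3.93). In replicate 1 all of the counts were on Eng-201. In replicate 2, Eng-201 held 386 counts and the 258-base Eng-203 printed above held 87, and because the effective length of Eng-203 is only 159 bases, those 87 counts made up 82.5% of the gene's TPM. Eng-203 is a processed transcript with no coding sequence, and its second exon of 226 bases lies in intron 1 of Eng-201. Counting coding transcripts alone, an alternative added after the data were seen, Eng stood at 20.03 TPM in replicate 1 and 5.03 TPM in replicate 2, and the log2 ratio was -1.80 in place of 0.50. The last 61 bases of Eng overlap Fpgs on the other strand, which had 1499 and 4287 counts.

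The pathway around endoglin was partly read. Of 15 other genes, 7 were read in both libraries, 6 of them at 10 or more counts in each, 1 in replicate 2 alone and 7 in neither. Id3, a target of BMP signals, had 255 and 473 TPM, and Id2 had 1.05 and 64.7 TPM. Smad5, which carries BMP signals to the nucleus, had 125 and 21.6 TPM, but 3592 and 3235 counts, which is 1.36-fold higher in replicate 1 in normalised counts (1.30 to 1.43). Its partner Smad4 had 0 and 2128 counts. Tgfbr1, a TGF-beta receptor, had 22.6 and 33.5 TPM but 2616 and 2416 counts, so that, as for Eng, it was higher in replicate 2 in TPM and higher in replicate 1 in normalised counts, 1.33-fold (1.26 to 1.40). Acvrl1, the receptor kinase that endoglin serves in endothelium, was at 0 in both libraries, as were the ligand genes Gdf2 (BMP9) and Bmp10 and the target Id1, all named after their values were seen. Several of these genes are active in thymocytes as well.

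Ramp2 encodes the membrane partner that turns the receptor Calcrl into a receptor for adrenomedullin (chromosome 11, 101246028 to 101259546, plus strand). It had 34 counts in replicate 1 and 895 in replicate 2, or 2.54 and 61.8 TPM (32.2 ± 41.9, SD, n = 2), 21.5-fold higher in replicate 2 in normalised counts (15.2 to 31.2). In replicate 1 all of these counts lay on Ramp2-205, a transcript that retains an intron, so coding transcripts stood at 0 and 35.9 TPM. That 0 is an estimate from only 34 counts. As posterior means, Ramp2-205 held 66.9% of Ramp2 TPM in replicate 1 and the coding Ramp2-202 held 7.93%. In replicate 2, Ramp2-205 held 41.8%, Ramp2-202 held 34.3% and Ramp2-201 held 23.8% of its TPM. Vps25 overlaps Ramp2 on the same strand over 5840 bases, and it had 2314 and 1959 counts. Of the Ramp2 transcripts, only Ramp2-203, listed at 0 counts in both libraries, reaches Vps25.

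Calcrl was also higher in replicate 2, with 8.93 TPM in replicate 1 and 67.3 TPM in replicate 2, a 6.50-fold count ratio (5.95 to 7.11). Of all genes that averaged at least 100 counts, 29.4% were 4-fold or more higher in replicate 2, and 2 libraries give no pattern to compare. Of the other partners of Calcrl, Ramp1 had 128 and 91.0 TPM, and Ramp3 had 1553 and 0 counts, at least 635-fold higher in replicate 1. Crcp, a cofactor of this receptor family that is also a subunit of RNA polymerase, had 67.7 and 183 TPM, and Gnas, the G protein it signals through, had 70.3 and 74.6 TPM. The ligand gene Adm had 0 and 1 counts, and was named after those values were seen.

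Plvap encodes the protein of the diaphragms that close endothelial fenestrae and caveolae (chromosome 8, 71497765 to 71511752, minus strand). It had 283 counts in replicate 1 and 0 in replicate 2, or 7.23 and 0 TPM, at least 116-fold higher in replicate 1. Gtpbp3, which overlaps Plvap on the other strand, had 1 and 2 counts. Cdh5, Cldn5 and Plvap have 1 transcript each in the tables, and Esam-201 held 99.9% and 100% of Esam.

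How often a gene was near 0 in 1 library, or 4-fold apart between the libraries, went with its level across the whole table. Both Flt1 and Plvap had 3 or fewer counts in 1 library, against 65.4% of mouse genes with a mean of 2 to 10 TPM, and both were 4-fold apart, against 81.1% of those that averaged at least 100 counts. At 10 to 25 TPM, neither Eng nor Cdh5 had so few counts and Cdh5 was 4-fold apart, against 56.4% and 75.7% of genes. At 25 to 50 TPM, Cldn5 had so few counts and both Cldn5 and Ramp2 were 4-fold apart, against 37.0% and 59.4%. At 50 to 100 TPM, neither Esam nor Pecam1 met either condition, against 13.5% and 31.5%. Genes at 0 in 1 library and at 10 or more counts in the other, as Cldn5 and Plvap were, made up 32.4% of genes within the range of the endothelial levels.

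Of another list of 20 endothelial surface and matrix genes, 6 were read in both libraries, 1 in replicate 1 alone, 7 in replicate 2 alone and 6 in neither. Over all mouse genes 19.0% were read in both. At 10 or more counts, 6 of the 20 were read in both and 9 in neither. Among the 7, Ecscr, Tie1 and Robo4, named after their values were seen, had only 2, 1 and 1 counts. The list summed to 257 TPM in replicate 1 and 321 TPM in replicate 2. Its sum was thus higher in replicate 2, whereas that of the 10 endothelial identity genes was higher in replicate 1, and the difference between the lists was not tested. Icam2, an adhesion molecule of endothelium and lymphocytes, stood at 93.5 ± 7.78 TPM (SD, n = 2). Gpihbp1, which holds lipoprotein lipase on capillary walls, stood at 70.6 ± 1.98 TPM, with 1068 counts in replicate 1 and 1160 in replicate 2. The log2 TPM ratios of Gpihbp1 (-0.06), Icam2 (0.17) and Tm4sf1 (-0.15) were smaller in size than that of any of the 9 endothelial identity genes read. Tm4sf1 had 36.5 and 32.8 TPM, S1pr1, a receptor also used by T cells leaving the thymus, had 28.8 and 75.2 TPM, and Clec14a had 20.2 and 11.1 TPM. Mmrn2 had 0 and 2024 counts, Ptprb 0 and 278, Mcam 0 and 201, Cd34 0 and 89, and Vwf 23 and 0. Tek and Emcn, named after their values were seen, were at 0 in both.

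Of 14 endothelial transcription factor genes, 4 were read in both libraries, 2 in replicate 1 alone, 4 in replicate 2 alone and 4 in neither. At 10 or more counts, 2 of the 14 were read in both. Ets1, which thymocytes also make, was the highest, with 208 and 328 TPM, followed by Ets2 with 31.3 and 133 TPM. Fli1 had 0 and 3591 counts and Sox7 had 1555 and 0, at least 975-fold higher in replicate 2 and at least 636-fold higher in replicate 1. Sox17 had 0 and 156 counts, Gata2 0 and 190, Klf4 203 and 0, and Elk3 770 and 2. Erg, Tal1, Sox18 and Hhex, named after their values were seen, were at 0 in both.

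Of 14 genes that tell arterial, venous and lymphatic endothelium apart, 5 were read in both libraries and 6 in neither. At 10 or more counts, 1 of the 14 was read in both. Of the 4 that averaged at least 100 counts, 3 were 4-fold or more apart, all higher in replicate 1, against 50.9% of all genes apart and 21.5% higher in replicate 1. The list summed to 107 TPM in replicate 1 and 37.4 TPM in replicate 2. Dll4, the arterial Notch ligand, which thymic epithelium also makes, had 2471 and 0 counts, at least 1011-fold higher in replicate 1. The apelin receptor gene Aplnr had 1199 and 1, the lymphatic receptor gene Lyve1, which macrophages also make, 243 and 2, and the venous factor gene Nr2f2 35 and 1. Pdpn, made by lymphatic endothelium and by thymic stroma, had 37.6 and 37.2 TPM.

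**Figure D5:**
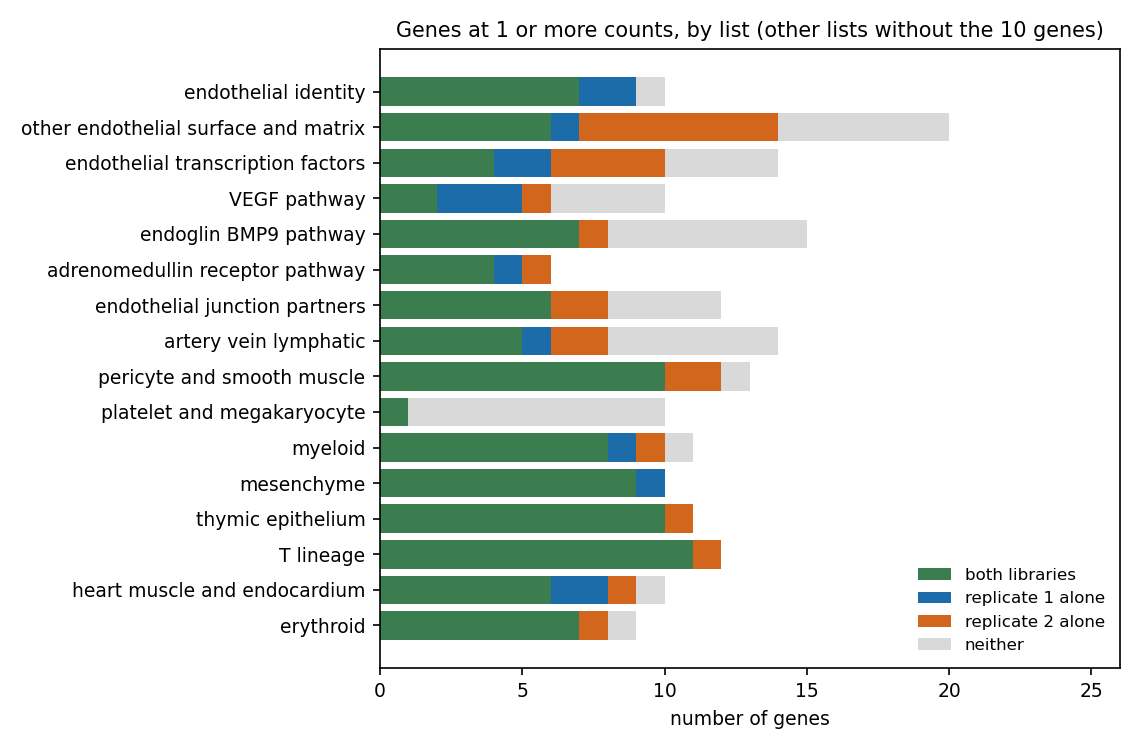
Number of genes (horizontal axis) at 1 or more counts in both libraries, in replicate 1 alone, in replicate 2 alone or in neither, for the endothelial identity genes at the top and each other list below, with those 10 genes left out of the other lists. Of the 10 endothelial identity genes 7 were read in both libraries, of the 20 other endothelial surface and matrix genes 6, and of the 10 platelet genes 1.

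Markers of the other cell types that make some of these genes were read as follows, and their part in the endothelial values was not tested. Of 10 platelet and megakaryocyte genes only Pf4 was read, with 1413 counts in replicate 1 and 744 in replicate 2 (142 and 66.2 TPM). The other 9, among them Itga2b and Gp1ba, were at 0 in both. The 11 myeloid genes summed to 577 TPM in replicate 1 and 1042 TPM in replicate 2. Of these, 8 were read in both, 6 of them at 10 or more counts in each, and Itgam, named after its value was seen, was at 0. The 10 heart muscle and endocardium genes summed to 1259 and 361 TPM, with 6 read in both, 4 of them at 10 or more counts in each. Of the 8 that averaged at least 100 counts, 4 were 4-fold or more higher in replicate 1 and 1 in replicate 2, against 21.5% and 29.4% of all genes. Nppa had 4311.5 and 0 counts, and Nppb had 835 and 0. Nfatc1 went the other way, at 0 and 5502 counts, and Npr3, named after its value was seen, was at 0. The 13 pericyte and smooth muscle genes summed to 170 and 255 TPM, with 10 read in both, 6 of them at 10 or more counts in each, and Acta2 at 74.8 and 90.4 TPM. The 9 erythroid genes summed to 3527 and 9133 TPM, and the 10 mesenchymal genes to 1725 and 1556 TPM.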

How the data were processed

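Expression in newborn thymus was analysed from 1 gene table and 1 transcript table for each of 2 libraries, which form 1 group by the labels, with replicate numbers from the labels. For each gene and transcript the authors deposited an expected count, estimated and thus not always whole, and a TPM, each also as a posterior mean. The transcript share in percent and other columns, such as lengths, stand as deposited, and the shares given here were recomputed from TPM. The assembly is mm10 per the labels, and the annotation is M4 per the deposited text notes. Aligner, counting program and strand setting: not given in the sources used here. The effective length in the tables is the length less 99 bases.

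Gene IDs were matched without version to GENCODE M21 on GRCm38 (42462 of 43346 matched, and the 884 others held 0.197% and 0.133% of counts). TPM was rescaled to 1000000 over mouse genes. Each ratio is the log2 of replicate 2 over replicate 1 after adding 1 TPM, for genes that averaged at least 100 expected counts. Count ratios compare normalised counts (counts over the library's mouse counts), with a 95% exact binomial interval, and against 0 counts with a floor of 3 counts per library. Both cover counting error alone, since no molecular identifiers were counted.

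The 10 genes and the 15 other lists were chosen with earlier results of these data known. Genes named are the 10, their transcripts at 10% or more of a gene's TPM in either library, and up to 5 genes of each list by mean TPM plus list genes at 0 in 1 library and at 10 or more counts in the other. Not every gene so selected is named. Genes that overlap the 10, and the transcripts Kdr-201, Flt1-203, Ramp2-203 and Egfl7-204, were named after their values were seen. The alternatives were posterior means, other TPM scalings, detection levels, pseudocounts, count minimums and fold thresholds, each library alone, and edgeR 4.0.16 TMM factors or DESeq2 1.42.0 size factors on expected counts rounded to whole numbers, used for scaling only. Restricting TPM to protein-coding transcripts was added after seeing the data. Python 3.11.15 with numpy 2.4.6, pandas 2.3.3 and scipy 1.17.1 was used, and R 4.3.3. The ratio step was run on simulated counts with counting error alone and planted changes in genes with high counts. The simulation held no spread between libraries beyond counting error, so it checks the calculation only. Of the 10 genes, 5 have a RefSeq promoter window.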

Additional observations from a re-analysis of the deposited data

How the results depend on the processing

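No paired analysis was possible because there is 1 group of 2 libraries. The number of endothelial identity genes 4-fold or more apart was 5, and it was 3 with a pseudocount of 5 TPM (38.8% of all genes), where Flt1 and Plvap came to -1.99 and -1.29 on the log2 scale, and 2 of 5 with a mean of 1000 or more counts (35.7%). It was 6 at a 2-fold threshold (67.7%). It stayed at 5 with a pseudocount of 0.1 TPM (52.7% of all genes), an 8-fold threshold (41.0%), posterior means (50.1%), TMM or DESeq2 scaling (52.8% each), no count filter (5 of 10 genes, and 11.9% of all 43346) and coding transcripts alone. For Eng the log2 ratio of 0.50 turned to -1.63 with TMM factors and -1.59 with DESeq2 size factors, which use counts and not TPM, and -1.80 with coding transcripts alone. Left-out libraries gave a summed level of 256 to 418 TPM and 7 to 9 of the 10 genes read. The summed level of 337 TPM was 334 with posterior means, 315 with spike-ins kept, 351 without mitochondrial genes, 388 over protein-coding genes and 292 with coding transcripts alone. The number read in both was 6 at 4 or more counts, at 10 or more counts and at 1 or more TPM. Both libraries came from 13 pg of RNA, and a count of 0 limits read counting alone.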
